A study of Rattus norvegicus with 6 samples.

Results

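Molecular motors are the subject: the kinesin, cytoplasmic dynein, dynactin and unconventional myosin genes, with the kinesin light chains, as transcribed in the amygdala of young rats. Members were chosen by gene symbol (Kif and Kifc with a number, Klc1 to Klc4, Dync1, Dync2, Dctn1 to Dctn6, Dynll, Dynlr and Dynlt names, and Myo with a number). The rule itself uses no measured value. The rule found 89 of the 32662 features in the table. They were 42 kinesin-named genes, 4 kinesin light chains, 7 dynein heavy, intermediate and light intermediate chains, 6 dynein light chains, 6 dynactin subunits and 24 myosins. Kif1bp, which encodes a binding partner of kinesins and is not itself a motor, and Kif28p matched the rule by their names and stand outside the classes below. The axonal transport motors (40 genes: transport kinesins, kinesin light chains, dynein and dynactin) were set against the 24 myosins.

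The libraries came from the amygdala of outbred Sprague Dawley rats, labelled male and 38 days old. There were 3 libraries from rats tested for social play behaviour (B-CTRL) and 3 from rats that were not (NB-CTRL), and the labels give no drug, diet or allele for either group. Values are FPKM, fragments scaled by transcript length and by the mapped fragments of the library, so levels can be compared between genes. RNA was selected by its poly(A) tail before sequencing. The labels do not say that each library is a separate animal, nor which sequencing lane each came from, so the p-values given speak only for the spread among these samples, which may be technical.

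Kinesins are ATP-driven motors that walk along microtubules, most of them towards the plus end, which in axons points away from the cell body. Cytoplasmic dynein, with its activator dynactin, walks towards the minus end and brings endosomes, signalling complexes and worn organelles back to the cell body. Unconventional myosins move along actin filaments and work over short distances, for example in dendritic spines and at the cell cortex.

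Some libraries stood apart. B-CTRL 1, although labelled male, had a summed level of 0.40 FPKM over the 5 chromosome Y genes found, against 58.9 to 98.8 FPKM in the other libraries. It also held choroid plexus transcripts, with marker sums of 7225, 14.3 and 19.8 FPKM in the B-CTRL libraries 1 to 3, against 28.6, 5.96 and 5.95 FPKM in the NB-CTRL libraries 1 to 3. B-CTRL 2 had the lowest estimated depth (0.72 times that of NB-CTRL 1, a rough estimate from the steps between low values) and the strongest dependence on locus length, the genomic span given for a feature: features in the longest eighth of loci lay 0.54 log2 lower against their gene means than those in the shortest eighth. All 7 amygdala markers were found, 4 higher and 3 lower on average in B-CTRL. Their sums were 197 to 298 FPKM in B-CTRL and 190.3 to 289 FPKM in NB-CTRL. Among them, Rspo2 ranged from 0.30 FPKM in B-CTRL 2 to 19.3 FPKM in B-CTRL 1. All 6 striatum markers were higher on average, with sums of 1064 to 3689 FPKM in B-CTRL and 930 to 2334 FPKM in NB-CTRL. Hypothalamus and thalamus markers summed to 71.2 FPKM in NB-CTRL 2 and 14.5 to 21.1 FPKM elsewhere. The part of brain regions in the motor gene values was not tested. Fewer cells of a type and less RNA per cell cannot be told apart in such bulk samples.

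Of the 89 motor genes, 68 had a mean of at least 0.5 FPKM and were tested with the 14043 features that passed this filter. No motor gene and no other feature differed between the groups at an adjusted p below 0.05 (limma, Benjamini-Hochberg over all tested features; 0 called higher, a background of 0%, and 0 called lower, a background of 0%). The lowest adjusted p among motor genes was 0.400. At an unadjusted limma p below 0.05, 6 motor genes (8.82% of 68) were higher in B-CTRL against a background of 6.25% of all tested features, and 9 (13.2%) were lower against a background of 6.07%. The libraries of the groups did not overlap for 7 motor genes higher in B-CTRL (10.3%, background 11.7%) and for 15 lower (22.1%, background 12%). The share higher is thus near the background, and the share lower is above it. The 15 genes at an unadjusted p below 0.05 became 3 without NB-CTRL 1, 3 without NB-CTRL 2, 5 without NB-CTRL 3, 11 without B-CTRL 2 and 23 without B-CTRL 3, as the share over all tested features moved from 12.3% to 5.80%, 3.67%, 6.08%, 8.80% and 25.9%.

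Direction differed by class. The fitted difference, B-CTRL minus NB-CTRL on the log2(FPKM + 0.5) scale, was below 0 for 51 of 68 motor genes (75%, background 50.3%) and above 0 for 17 (25%, background 49.7%). The count below 0 was 43 of 68 without B-CTRL 2, 42 with each library scaled to the same median and 39 with the trend with locus length removed. Of the 68 genes, 77.9% have a locus of their own, so the last count cannot speak for the whole set. All 17 transport kinesins, 8 of 8 other non-mitotic kinesins, 3 of 3 light chains of kinesin and 15 of 15 myosins had a lower mean log2 level in B-CTRL. Without B-CTRL 2, 15 of 17, 5 of 8, 3 of 3 and 12 of 15 were lower. Of the dynein light chains 5 of 6 had a higher mean log2 level, and of the dynactin subunits 3 of 6, a share near the background. Class medians of the log2 difference were -0.36 for transport kinesins, -0.51 for myosins, 0.006 for the larger dynein chains, 0.16 for dynactin and 0.44 for dynein light chains, beside -0.0024 over all tested features. The axonal transport motors as a whole had a median of -0.17, with 27 of 39 tested below 0; it was -0.058 without B-CTRL 2 (25 below 0) and -0.078 under median scaling (22 below 0). Scaling each library to the same median moved the median of all tested features by 0.091. Under that scaling 16 of 17 transport kinesins and 12 of 15 myosins were below 0 and 6 of 6 dynein light chains above it. Under quantile normalization the counts were 16, 12 and 5, and the median of the larger dynein chains turned to -0.036. These medians are descriptions, and no test was made over the members.

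**Figure D1:**
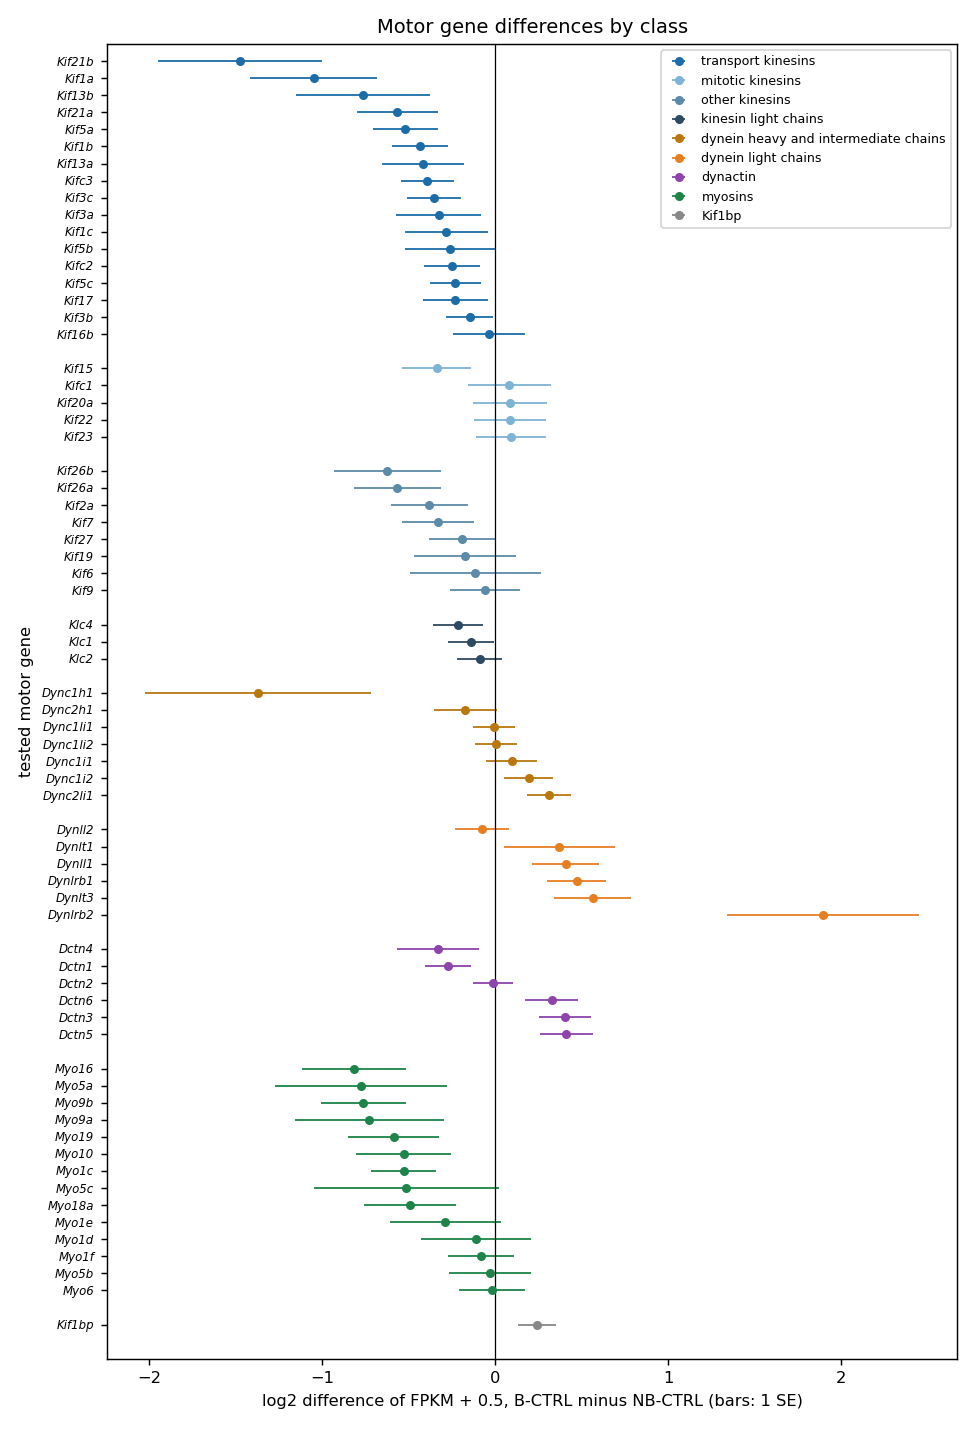
Log2 difference (B-CTRL minus NB-CTRL, of FPKM + 0.5) of the tested motor genes, grouped and coloured by class, with 1 myosin left out; points are the fitted differences and bars 1 standard error, with 3 libraries per group. Kif21b (-1.48) and Dync1h1 (-1.37) lie farthest to the left, and Dynlrb2 (1.89) farthest to the right.

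Promoters are shown for a pair of genes that were lower in B-CTRL in every library (Kif1a and Dync1h1) and a pair that were higher (Dynll1 and Dctn3). Each line gives the 250 bases before the RefSeq transcription start in build GRCr8, read 5′ to 3′ on the strand of the gene. Capitals mark matches on either strand to the GC box GGGCGG, the CCAAT box CCAAT, the cyclic AMP response element TGACGTCA and the TATA box TATAAA; GC boxes in Dync1h1 overlap each other.
Kif1a (chr9:101094778-101095027, minus strand): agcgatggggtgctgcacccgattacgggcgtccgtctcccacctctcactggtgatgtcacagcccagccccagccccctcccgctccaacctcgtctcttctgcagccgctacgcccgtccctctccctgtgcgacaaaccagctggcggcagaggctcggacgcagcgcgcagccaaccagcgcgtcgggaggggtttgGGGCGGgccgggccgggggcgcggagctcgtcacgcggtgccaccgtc
Dync1h1 (chr6:135436228-135436477, plus strand): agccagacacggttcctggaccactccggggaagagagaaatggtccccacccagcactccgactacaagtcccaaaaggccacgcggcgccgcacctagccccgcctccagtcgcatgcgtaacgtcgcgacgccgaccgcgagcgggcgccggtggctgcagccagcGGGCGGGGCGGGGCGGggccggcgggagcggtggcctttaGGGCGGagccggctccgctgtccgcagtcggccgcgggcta
Dynll1 (chr12:46972827-46973076, plus strand): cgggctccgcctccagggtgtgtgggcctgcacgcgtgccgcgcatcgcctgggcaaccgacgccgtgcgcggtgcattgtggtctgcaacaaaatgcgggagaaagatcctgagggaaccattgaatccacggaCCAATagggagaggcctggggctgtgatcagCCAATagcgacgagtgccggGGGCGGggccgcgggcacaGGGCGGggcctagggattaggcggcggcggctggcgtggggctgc
Dctn3 (chr5:61684904-61685153, minus strand): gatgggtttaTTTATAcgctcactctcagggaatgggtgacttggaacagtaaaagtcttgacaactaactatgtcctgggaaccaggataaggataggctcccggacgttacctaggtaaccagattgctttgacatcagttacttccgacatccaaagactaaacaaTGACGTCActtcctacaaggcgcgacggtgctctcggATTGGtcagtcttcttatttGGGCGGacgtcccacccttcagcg
Of the 89 motor genes, 68 had a promoter entry, a set that is not the same as the 68 tested genes. A GC box was found in 44 of them (64.7%), against 33.5% of all 27457 genes with an entry. The CCAAT box was found in 25 (36.8%, against 36.1%), and the TATA box in 7 (10.3%, against 14.1%). A cyclic AMP response element stood in 5 (7.35%, against 1.78%), namely those of Dctn3, Kif15, Kif17, Kif5c and Klc1. The palindromic NRF1 motif was found in 1, Dync1li1 (1.47%, against 0.87%). Median GC content of the window was 61.6% over the 73 entries of motor genes, some of which have more than 1 entry, and 51.2% over all 33469 entries. Of the genes with a cyclic AMP response element, Dctn3 was higher in B-CTRL on average, and Kif5c, Kif17, Klc1 and Kif15 were lower. A match in these letters is a description and not a site of binding.

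Kinesin-1, which hauls mitochondria, vesicles and cytoskeletal cargo out along axons, was the most abundant kinesin by its heavy chains. Kif5a, the neuron-specific heavy chain (chr7:70513342-70577147 in build rn6), stood at 322, 227 and 356 FPKM in the B-CTRL libraries 1 to 3, against 431, 445 and 400.1 FPKM in the NB-CTRL libraries 1 to 3. Every B-CTRL library lay below every NB-CTRL library. The group levels were 302 ± 66.8 against 425 ± 23.0 FPKM (means with their SD over 3 libraries in each group, B-CTRL before NB-CTRL, here and below), a log2 difference of -0.52 ± 0.19 SE (limma unadjusted p = 0.0278), and -0.33 without B-CTRL 2. The table gives Kif5a the same locus as Dctn2 and Mbd6, so its value is uncertain. Kif5c, also enriched in neurons, stood at 180.4, 147 and 199 FPKM in the B-CTRL libraries 1 to 3, against 198, 200.1 and 215 FPKM in the NB-CTRL libraries 1 to 3, and the groups overlapped. Kif5b, the heavy chain found in all tissues, stood at 78.9, 37.7 and 61.2 FPKM in the B-CTRL libraries 1 to 3, against 74.0, 69.5 and 61.1 FPKM in the NB-CTRL libraries 1 to 3. Only B-CTRL 2 was low for Kif5b, and without that library the difference turned from -0.26 to 0.031. Within each library, Kif5a made up 55.4, 55.2 and 57.8% in the B-CTRL libraries 1 to 3, against 61.3, 62.3 and 59.2% in the NB-CTRL libraries 1 to 3 of the summed FPKM of the heavy chains. That share was lower in each B-CTRL library; it was picked after its values were seen and was not tested.

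Kinesin light chains link the heavy chains to cargo. Klc1 stood at 365, 328 and 414 FPKM in the B-CTRL libraries 1 to 3, against 389, 412 and 415 FPKM in the NB-CTRL libraries 1 to 3. It had the highest mean level over the 6 libraries among the kinesin and light chain genes. The groups overlapped, with a log2 difference of -0.14 ± 0.13 SE; the class median was -0.058 without B-CTRL 2. Klc2 stood at 118 ± 8.67 against 126 ± 13.7 FPKM and Klc4 at 16.2 ± 1.22 against 18.9 ± 2.43 FPKM, each with overlap between the groups. Klc1 made up between 71.7% and 75.2% of the summed light chain level in every library. Klc3 was too low to be tested, and its highest value (0.773 FPKM) was in B-CTRL 1.

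Among the kinesin-3 motors, Kif1a, which carries synaptic vesicle precursors and dense-core vesicles (chr9:100171771-100253609), stood at 105, 43.4 and 118 FPKM in the B-CTRL libraries 1 to 3, against 162, 194 and 154 FPKM in the NB-CTRL libraries 1 to 3. All B-CTRL libraries were below all NB-CTRL libraries, and B-CTRL 2 was lowest by far. Levels were 88.9 ± 39.8 against 169.9 ± 21.6 FPKM, a log2 difference of -1.05 ± 0.37 SE (limma unadjusted p = 0.0243), and -0.60 without B-CTRL 2. Kif1b, whose isoforms carry mitochondria and synaptic vesicle precursors, stood at 132, 90.6 and 121 FPKM in the B-CTRL libraries 1 to 3, against 151, 154 and 153 FPKM in the NB-CTRL libraries 1 to 3. Its NB-CTRL libraries were close to each other and above each B-CTRL library (log2 difference -0.43 ± 0.16 SE, -0.27 without B-CTRL 2). Kif13b stood at 6.11 ± 2.94 against 9.93 ± 2.10 FPKM without overlap (log2 difference -0.77 ± 0.39 SE, -0.31 without B-CTRL 2), Kif13a and Kif1c were lower on average with overlap, and the endosome motor Kif16b had a difference near 0 (-0.035 ± 0.21 SE). Kif1a made up 36.2, 26.6 and 42.4% in the B-CTRL libraries 1 to 3, against 43.6, 49.2 and 44.2% in the NB-CTRL libraries 1 to 3 of the summed level of Kif1a, Kif1b and Kif1c, a share that was lower in each B-CTRL library.

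The kinesin-4 motor Kif21b, a neuronal kinesin that also slows microtubule growth (chr13:52976506-53023103), had the largest negative difference of the family. It stood at 9.47, 2.23 and 8.71 FPKM in the B-CTRL libraries 1 to 3, against 17.3, 16.6 and 17.2 FPKM in the NB-CTRL libraries 1 to 3. The NB-CTRL libraries were nearly level, and each B-CTRL library was far below them. Levels were 6.80 ± 3.98 against 17.1 ± 0.361 FPKM, a log2 difference of -1.48 ± 0.47 SE (limma unadjusted p = 0.0171), -0.87 without B-CTRL 2 and -1.81 without B-CTRL 1. Its relative Kif21a stood at 40.6, 24.7 and 43.8 FPKM in the B-CTRL libraries 1 to 3, against 48.0, 61.2 and 49.1 FPKM in the NB-CTRL libraries 1 to 3, again without overlap (log2 difference -0.57 ± 0.24 SE, -0.31 without B-CTRL 2).

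Kinesin-2, which includes the heterotrimeric motor of cilia and of vesicles, had log2 differences from -0.36 (Kif3c) to -0.15 (Kif3b). Kif3a stood at 67.4, 34.2 and 55.9 FPKM in the B-CTRL libraries 1 to 3, against 60.5, 69.3 and 61.1 FPKM in the NB-CTRL libraries 1 to 3. B-CTRL 1 lay among the NB-CTRL values, and without B-CTRL 2 the log2 difference moved from -0.33 to -0.049, and without B-CTRL 1 to -0.53. Kif3b differed by -0.15 ± 0.13 SE and Kif3c by -0.36 ± 0.16 SE, the latter without overlap. Kif17, which in mouse neurons carries NMDA receptor subunits into dendrites, stood at 5.69, 6.04 and 7.59 FPKM in the B-CTRL libraries 1 to 3, against 9.28, 7.12 and 6.57 FPKM in the NB-CTRL libraries 1 to 3, with overlap (log2 difference -0.23 ± 0.19 SE, -0.091 without NB-CTRL 1). The C-terminal motors Kifc2 and Kifc3 were at 113 ± 20.9 against 133 ± 10.3 FPKM and 19.2 ± 0.94 against 25.5 ± 4.28 FPKM, and Kifc3 did not overlap between the groups.

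The transport kinesins were lowest in B-CTRL 2 for 14 of 17 genes (82.4%), against 29.3% of all tested features. Their mean deviation from the gene means was 0.0059, -0.66 and -0.031 in the B-CTRL libraries 1 to 3, against 0.25, 0.28 and 0.14 in the NB-CTRL libraries 1 to 3. Each B-CTRL library thus lay below each NB-CTRL library, with B-CTRL 1 and 3 close to 0. Without B-CTRL 2 the median difference was -0.22 and 15 of 17 genes stayed below 0, and without B-CTRL 1 it was -0.51 with 17 of 17. Of the 6 excitatory neuron markers found, 3 were higher and 3 lower on average, none was at 0, and their sum was 709.8, 122 and 505 FPKM in the B-CTRL libraries 1 to 3, against 303, 237 and 649 FPKM in the NB-CTRL libraries 1 to 3. That sum was also lowest in B-CTRL 2, but highest in B-CTRL 1. The 7 pan-neuronal markers (3 higher, none at 0) had sums of 1890.1 to 2261 FPKM in B-CTRL and 1683 to 2198 FPKM in NB-CTRL. Of the 6 inhibitory neuron markers tested, 2 were higher and 4 lower, with Npy listed at 0. Their sum was 951, 1794 and 1215 FPKM in the B-CTRL libraries 1 to 3, against 1306, 1592 and 1245 FPKM in the NB-CTRL libraries 1 to 3, highest in B-CTRL 2. The part of these neurons in the kinesin result was not tested.

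**Figure D2:**
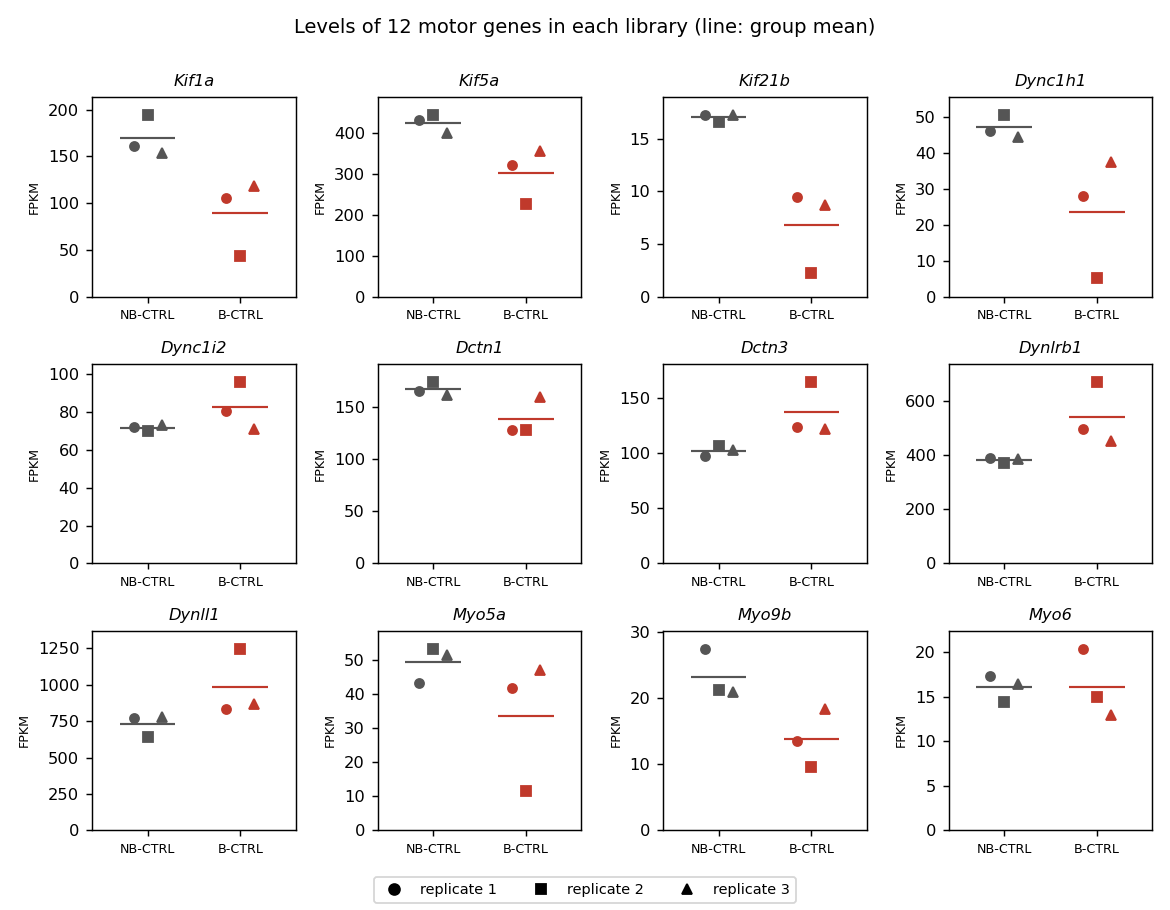
FPKM of 12 motor genes in each library, on axes that start at 0; symbols mark the replicate number within a group and lines the group mean. Dync1h1 in B-CTRL 2 (5.23 FPKM) and Myo5a in B-CTRL 2 (11.5 FPKM) sit far below the rest, while Dynlrb1 and Dctn3 are higher in each B-CTRL library.

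Non-mitotic kinesins outside long-range transport had a median log2 difference of -0.26. B-CTRL 2 was lowest for 7 of the 8 tested genes, and without it the median was -0.13, with 3 of 8 above 0. Kif2a, a microtubule depolymerase that restrains axon branches, stood at 26.4, 14.4 and 20.9 FPKM in the B-CTRL libraries 1 to 3, against 23.9, 27.7 and 27.1 FPKM in the NB-CTRL libraries 1 to 3, and the groups overlapped (log2 difference -0.38 ± 0.22 SE, -0.15 without B-CTRL 2 and -0.58 without B-CTRL 1). Kif26a, an atypical kinesin that signals rather than walks, stood at 2.97, 2.12 and 3.84 FPKM in the B-CTRL libraries 1 to 3, against 5.75, 4.42 and 3.67 FPKM in the NB-CTRL libraries 1 to 3. Only B-CTRL 3 reached the NB-CTRL range (log2 difference -0.57 ± 0.25 SE, -0.38 without B-CTRL 2). The ciliary or Hedgehog-linked kinesins Kif6, Kif7, Kif9, Kif19 and Kif27 had differences between -0.33 and -0.06, all with overlap, and Kif26b, at 0.716 ± 0.367 against 1.33 ± 0.352 FPKM, had -0.62 ± 0.31 SE (-0.36 without B-CTRL 2), also with overlap. Kif24 was too low to be tested, and Kif2b and Kif12 were listed at 0 in all 6 libraries.

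Kinesins of cell division were near the limit of the table, in tissue where few cells divide. Of 12 such genes, 5 passed the filter, with means from 0.53 to 1.24 FPKM. The highest were Kifc1, at 1.30 ± 0.397 against 1.18 ± 0.127 FPKM, and Kif22, at 1.21 ± 0.132 against 1.12 ± 0.234 FPKM. Kif20a, Kif22, Kif23 and Kifc1 differed by at most 0.092 log2, while Kif15 stood at 0.802, 0.68 and 0.839 FPKM in the B-CTRL libraries 1 to 3, against 1.22, 1.05 and 1.06 FPKM in the NB-CTRL libraries 1 to 3, lower in each B-CTRL library (log2 difference -0.34 ± 0.20 SE). The summed level of the 12 genes was 7.61, 6.90 and 6.62 FPKM in the B-CTRL libraries 1 to 3, against 7.07, 6.67 and 7.07 FPKM in the NB-CTRL libraries 1 to 3, with overlap. The sum of 7 markers of cycling cells, 4 of 6 tested being higher, was 10.5 FPKM in B-CTRL 1 and between 3.58 and 6.67 FPKM elsewhere. Aurkb, among those higher, passed the filter only through B-CTRL 1 (3.30 FPKM, at most 0.402 FPKM elsewhere).

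Subunits of the dynein motor itself had differences of unlike size, none past the threshold. Dync1h1, the heavy chain that holds the ATPase (chr6:134958853-135089409), stood at 28.0, 5.23 and 37.3 FPKM in the B-CTRL libraries 1 to 3, against 46.1, 50.5 and 44.4 FPKM in the NB-CTRL libraries 1 to 3. The NB-CTRL libraries were tight and the B-CTRL libraries spread widely below them, with B-CTRL 2 the lowest. Levels were 23.5 ± 16.5 against 47.0 ± 3.12 FPKM, a log2 difference of -1.37 ± 0.65 SE (limma unadjusted p = 0.0743), and -0.53 without B-CTRL 2. The table gives this locus to 2 other features as well. The intermediate chain genes Dync1i1 and Dync1i2, whose products hold the complex together, were at 88.6 ± 5.01 against 83.6 ± 14.1 FPKM and 82.4 ± 12.6 against 71.4 ± 1.63 FPKM, both with overlap. The light intermediate chains Dync1li1 and Dync1li2, which bind cargo adaptors, lay within 0.01 log2 of no difference (-0.0067 ± 0.12 SE and 0.006 ± 0.12 SE).

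As a ratio to the summed intermediate chains, Dync1h1 was 0.167, 0.0276 and 0.241 in the B-CTRL libraries 1 to 3, against 0.314, 0.298 and 0.299 in the NB-CTRL libraries 1 to 3. NB-CTRL libraries agreed closely, and each B-CTRL library was lower. This ratio was not tested. Dynein-2, which returns cargo within cilia, had its heavy chain Dync2h1 at 3.79 ± 0.742 against 4.29 ± 0.266 FPKM, with overlap. Its light intermediate chain Dync2li1 stood at 21.8, 22.8 and 20.9 FPKM in the B-CTRL libraries 1 to 3, against 17.6, 15.8 and 19.2 FPKM in the NB-CTRL libraries 1 to 3, higher in each B-CTRL library (log2 difference 0.31 ± 0.13 SE, limma unadjusted p = 0.047).

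Dynein light chains had the highest class median. Markers of some glial cells were also higher on average in B-CTRL: 7 of 8 for microglia, with sums of 238 to 330.4 FPKM in B-CTRL and 225 to 250.3 FPKM in NB-CTRL, and 7 of 7 for oligodendrocytes, with sums of 8243 to 16111 FPKM in B-CTRL and 6985 to 13676 FPKM in NB-CTRL, none at 0. Other glial markers were mixed, with 3 higher and 3 lower for astrocytes and 2 higher and 3 lower for oligodendrocyte precursors. The part of glial cells in the dynein light chain values was not tested. Dynll1, the most abundant motor gene, encodes a hub protein that joins many complexes beside dynein (chr12:47074199-47076572), and stood at 833, 1246 and 864 FPKM in the B-CTRL libraries 1 to 3, against 769, 642 and 778 FPKM in the NB-CTRL libraries 1 to 3. Each B-CTRL library was above each NB-CTRL library, with B-CTRL 2 highest (log2 difference 0.41 ± 0.19 SE, 0.22 without B-CTRL 2 and 0.056 with quantile normalization). Its near relative Dynll2 stood at 334, 469 and 424 FPKM in the B-CTRL libraries 1 to 3, against 428, 446 and 407 FPKM in the NB-CTRL libraries 1 to 3, with overlap and a difference of -0.075 ± 0.16 SE. Dynll1 made up 71.4, 72.7 and 67.1% in the B-CTRL libraries 1 to 3, against 64.2, 59.0 and 65.6% in the NB-CTRL libraries 1 to 3 of their sum. Dynlrb1, a roadblock-type chain, stood at 498, 673 and 452 FPKM in the B-CTRL libraries 1 to 3, against 391.9, 374 and 387 FPKM in the NB-CTRL libraries 1 to 3. The B-CTRL values were spread and all above the close NB-CTRL values (log2 difference 0.47 ± 0.17 SE, limma unadjusted p = 0.0286, 0.30 without B-CTRL 2 and 0.17 with quantile normalization). Dynlt3, a Tctex-type chain, stood at 133, 125 and 77.8 FPKM in the B-CTRL libraries 1 to 3, against 65.2, 76.9 and 79.7 FPKM in the NB-CTRL libraries 1 to 3. B-CTRL 3 lay among the NB-CTRL libraries, so the groups overlapped (log2 difference 0.56 ± 0.22 SE, limma unadjusted p = 0.0387). Dynlt1 overlapped too, at 36.7 ± 14.4 against 26.7 ± 3.91 FPKM.

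Dynlrb2, the roadblock chain known from cilia (chr19:49016890-49028404), had the largest difference of all motor genes. It stood at 20.9, 6.81 and 3.51 FPKM in the B-CTRL libraries 1 to 3, against 1.82, 1.93 and 1.67 FPKM in the NB-CTRL libraries 1 to 3. B-CTRL 1 was highest, and B-CTRL 2 and 3 were also above all NB-CTRL libraries. The log2 difference was 1.89 ± 0.56 SE (limma unadjusted p = 0.0114), and 1.23 without B-CTRL 1. Of the 7 ependymal and motile cilia markers found, 5 were tested and 4 were higher on average, and none was at 0 in every library. Their sum was 31.3, 4.56 and 2.55 FPKM in the B-CTRL libraries 1 to 3, against 3.84, 6.63 and 4.09 FPKM in the NB-CTRL libraries 1 to 3, so B-CTRL 1 was highest, B-CTRL 2 lay within the NB-CTRL range and B-CTRL 3 below it. All 6 tested choroid plexus markers were higher on average, with Otx2 listed at 0 throughout. These averages rest largely on B-CTRL 1. Slc4a5 (7.27 FPKM there, at most 0.214 FPKM elsewhere) and Folr1 (33.9 FPKM, at most 0.603 FPKM elsewhere) passed the filter only through that library. The same holds for the ependymal marker Tmem212 (6.26 FPKM, at most 0.0652 FPKM elsewhere). The direction of such markers was set by the filter. Of the ciliary or Hedgehog-linked kinesins, Kif9 and Kif19 were highest in B-CTRL 1 (2.37 and 3.41 FPKM), Kif27 in B-CTRL 3 (2.83 FPKM), Kif6 in NB-CTRL 1 (1.48 FPKM) and Kif7 in NB-CTRL 2 (2.60 FPKM). In B-CTRL 2 the ependymal and choroid plexus marker sums lay within the NB-CTRL range. The part of these cell types in the Dynlrb2 values was not tested.

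**Figure D3:**
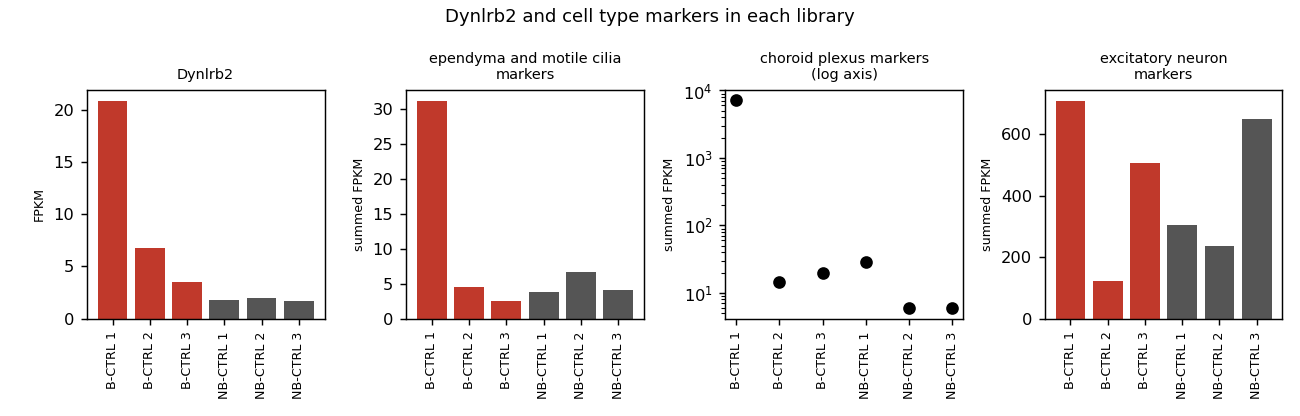
Dynlrb2 (FPKM) and the summed FPKM of ependymal, choroid plexus and excitatory neuron markers in each library; the choroid plexus panel has a log axis. B-CTRL 1 is highest in all 4 panels, and B-CTRL 2 is lowest for excitatory neuron markers (122 FPKM).

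Dynactin subunits also differed in sign. Dctn1, the p150Glued subunit that binds microtubules and dynein (chr4:114876769-114896573), stood at 129, 128 and 160.1 FPKM in the B-CTRL libraries 1 to 3, against 166, 175 and 162 FPKM in the NB-CTRL libraries 1 to 3. The B-CTRL libraries were lower without overlap, B-CTRL 3 only just (log2 difference -0.27 ± 0.13 SE). Dctn2, or dynamitin, was level at 141 ± 7.52 against 142 ± 9.16 FPKM. Dctn3, of the shoulder, stood at 124, 165 and 123 FPKM in the B-CTRL libraries 1 to 3, against 97.8, 107 and 103 FPKM in the NB-CTRL libraries 1 to 3. Each B-CTRL library was above each NB-CTRL library (log2 difference 0.41 ± 0.15 SE, limma unadjusted p = 0.0312, 0.27 without B-CTRL 2). The pointed-end subunits Dctn5 and Dctn6 were also higher on average, Dctn5 at 53.3, 69.2 and 49.8 FPKM in the B-CTRL libraries 1 to 3, against 40.6, 43.1 and 44.4 FPKM in the NB-CTRL libraries 1 to 3 without overlap (log2 difference 0.41 ± 0.15 SE, 0.27 without B-CTRL 2) and Dctn6 at 84.4 ± 13.5 against 66.8 ± 6.47 FPKM with overlap, whereas Dctn4, low in B-CTRL 2, had -0.33 ± 0.24 SE, and -0.059 without that library. Dctn1 was also set as a ratio against the mean of Dctn3, Dctn5 and Dctn6, the subunits with a higher mean log2 level in B-CTRL. The ratio was 1.49, 1.15 and 1.96 in the B-CTRL libraries 1 to 3, against 2.49, 2.34 and 2.28 in the NB-CTRL libraries 1 to 3. It was lower in each B-CTRL library, but its direction was set by that choice of subunits, and it was not tested.

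The sum of the axonal transport motors holds light chains and dynactin subunits as well as motor chains. Conventional myosins and myosin light chains were outside the rule. Across these unlike parts, the unconventional myosins had much the lower level in sum. Their summed level was 175, 103 and 190.1 FPKM in the B-CTRL libraries 1 to 3, against 216, 201 and 203 FPKM in the NB-CTRL libraries 1 to 3, while that of the axonal transport motors was 4509.6, 4854 and 4594 FPKM in the B-CTRL libraries 1 to 3, against 4569, 4664 and 4567 FPKM in the NB-CTRL libraries 1 to 3. The first sum was lower in each B-CTRL library, and the second overlapped. Myosins thus amounted to 3.88, 2.12 and 4.14% in the B-CTRL libraries 1 to 3, against 4.73, 4.32 and 4.44% in the NB-CTRL libraries 1 to 3 of the axonal transport motors. The share of dynein light chains in the latter sum was 41.3, 52.9 and 40.1% in the B-CTRL libraries 1 to 3, against 36.9, 33.6 and 36.7% in the NB-CTRL libraries 1 to 3, and that of transport kinesins was 26.6, 17.2 and 27.3% in the B-CTRL libraries 1 to 3, against 31.9, 32.9 and 31.1% in the NB-CTRL libraries 1 to 3. Both shares separated the groups, upwards for dynein light chains and downwards for transport kinesins, and were not tested: with 3 libraries in each group, the smallest p an exact permutation test allows is 0.1. Sums depend on the scale, since the FPKM total of all features was 579141, 641725 and 583803 in the B-CTRL libraries 1 to 3, against 536937, 522422 and 527081 in the NB-CTRL libraries 1 to 3. The sum of all motor genes overlapped between the groups. As a percent of that total it was 0.83, 0.79 and 0.84 against 0.91, 0.95 and 0.93, lower in each B-CTRL library.

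The most abundant of the unconventional myosins in the rule was Myo5a, the class V motor that carries endoplasmic reticulum and vesicles into dendrites and spines (chr8:82037976-82156617). It stood at 41.6, 11.5 and 47.0 FPKM in the B-CTRL libraries 1 to 3, against 43.0, 53.2 and 51.4 FPKM in the NB-CTRL libraries 1 to 3. B-CTRL 2 was far lower than any other library, and B-CTRL 3 lay among the NB-CTRL values. The log2 difference was -0.78 ± 0.50 SE, and -0.15 without B-CTRL 2. Myo5b, which moves recycling endosomes, was level at 18.4 ± 5.68 against 18.5 ± 3.02 FPKM, and Myo5c was low and variable at 2.90 ± 1.73 against 4.63 ± 3.13 FPKM. Myo6, the myosin that walks towards the minus end and takes part in endocytosis, stood at 20.4, 15.03 and 13.0 FPKM in the B-CTRL libraries 1 to 3, against 17.4, 14.4 and 16.4 FPKM in the NB-CTRL libraries 1 to 3. The groups overlapped, with a log2 difference of -0.015 ± 0.19 SE. The sign of that difference turned under median scaling (0.078) and quantile normalization (0.054).

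Class IX myosins carry a signalling domain in their tail beside the motor. Myo9b, of this class (chr16:19669410-19754069), stood at 13.4, 9.56 and 18.4 FPKM in the B-CTRL libraries 1 to 3, against 27.4, 21.1 and 20.9 FPKM in the NB-CTRL libraries 1 to 3. Each B-CTRL library was below each NB-CTRL library (log2 difference -0.76 ± 0.25 SE, limma unadjusted p = 0.0177, -0.53 without B-CTRL 2). Myo9a, of the same class, stood at 8.31, 2.46 and 8.86 FPKM in the B-CTRL libraries 1 to 3, against 9.46, 10.02 and 10.1 FPKM in the NB-CTRL libraries 1 to 3, again without overlap. B-CTRL 2 was the outlying library for Myo9a, and without it the difference moved from -0.73 to -0.19.

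Among the remaining myosins, Myo16, a neuronal myosin, stood at 5.34, 3.49 and 2.51 FPKM in the B-CTRL libraries 1 to 3, against 4.92, 8.40 and 7.44 FPKM in the NB-CTRL libraries 1 to 3. B-CTRL 1 reached above NB-CTRL 1, so the groups overlapped, with a log2 difference of -0.82 ± 0.30 SE (limma unadjusted p = 0.0296, -0.79 without B-CTRL 2). Myo10, a motor of filopodia, stood at 6.65, 3.15 and 6.20 FPKM in the B-CTRL libraries 1 to 3, against 7.91, 8.13 and 6.75 FPKM in the NB-CTRL libraries 1 to 3, without overlap by a narrow margin (log2 difference -0.53 ± 0.27 SE, -0.22 without B-CTRL 2). Myo1c, a class I motor that ties membranes to actin, stood at 4.61, 3.15 and 4.65 FPKM in the B-CTRL libraries 1 to 3, against 5.91, 6.64 and 5.80 FPKM in the NB-CTRL libraries 1 to 3. All B-CTRL libraries were below the NB-CTRL range (log2 difference -0.53 ± 0.19 SE, limma unadjusted p = 0.0267). Myo18a, whose own motor activity is weak, was at 23.1 ± 8.20 against 31.3 ± 2.80 FPKM, with overlap. Myo19, which rides on mitochondria, had a difference of -0.59 ± 0.26 SE (-0.34 without B-CTRL 1), and Myo1d, Myo1e and Myo1f ranged from -0.29 to -0.083. The other 9 myosins (Myo1a, Myo1g, Myo1h, Myo3a, Myo3b, Myo7a, Myo7b, Myo15a and Myo18b) had means of 0.054 to 0.25 FPKM and were not tested.

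The myosin class as a whole had mean deviations of -0.047, -0.62 and 0.011 in the B-CTRL libraries 1 to 3, against 0.34, 0.12 and 0.19 in the NB-CTRL libraries 1 to 3. Each B-CTRL library lay below each NB-CTRL library, B-CTRL 2 by the widest margin. The median without B-CTRL 2 was -0.19, with 12 of 15 below 0, and without B-CTRL 1 it was -0.55, with 14 of 15 below 0. For dynein light chains the deviations were 0.53, 0.52 and -0.14 in the B-CTRL libraries 1 to 3, against -0.28, -0.31 and -0.32 in the NB-CTRL libraries 1 to 3. B-CTRL 1 and 2 were high and B-CTRL 3 was between them and the NB-CTRL libraries. The median was 0.26 without B-CTRL 2 and 0.47 without B-CTRL 1. These deviations include Dynlrb2, with a log2 difference of 1.89, and were not taken without it. In B-CTRL 3, Dynlt1 (20.1 FPKM) lay below all NB-CTRL libraries and Dynlt3 and Dynll2 within their range, while Dynll1, Dynlrb1 and Dynlrb2 lay above it.

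**Figure D4:**
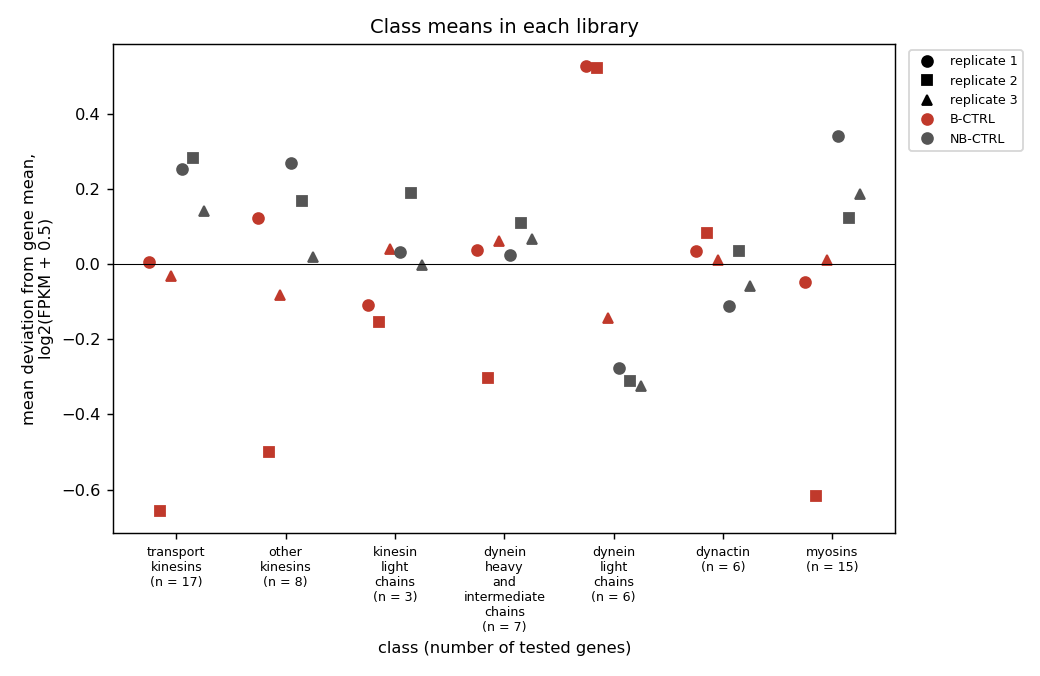
Mean deviation of 7 motor classes from their gene means, log2(FPKM + 0.5), in each library; colour marks the group and symbol the replicate number. B-CTRL 2 is lowest for transport kinesins (-0.66) and myosins (-0.62). All B-CTRL libraries are above all NB-CTRL libraries for dynein light chains, a mean that includes Dynlrb2 (log2 difference 1.89).

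Locus length moved with these differences. Over the 53 tested motor genes with a locus of their own (77.9% of 68, under the 80% needed to speak for the whole set), the log2 difference and the log10 locus length had a Pearson r of -0.51 (Spearman rank correlation -0.56), and over the 11017 such features of the whole table -0.27 (-0.30). These are correlations across genes of the same 6 libraries and are given as descriptions. The median difference of all such features was 0.13 in the shortest of 8 length classes and -0.23 in the longest, while the 14 motor genes in the longest class had -0.46. Dynein light chains have short loci (median 8.55 kb) and myosins long ones (101 kb). Among the 13 myosins with their own locus r was -0.016 (Spearman rank correlation -0.12). Among the 31 axonal transport motors with their own locus (79.5% of 39, also under 80%) r was -0.48 (-0.60). After removal of the length trend from each library the median was -0.27 for myosins, 0.40 for dynein light chains, 0.24 for dynactin and 0.13 for the larger dynein chains. With that trend removed, 10 of 15 myosins stayed below 0. For transport kinesins the check is void, since 64.7% of them have a locus of their own. The other loci are shared with other features, those of Kif13a, Kif1c and Kif16b only with small RNAs. In that setting the transport kinesin median was -0.25, with 15 of 17 below 0. Kif21b, which has its own locus of 46.6 kb, had -1.37 after the removal, and Kif1a had -0.86.

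**Figure D5:**
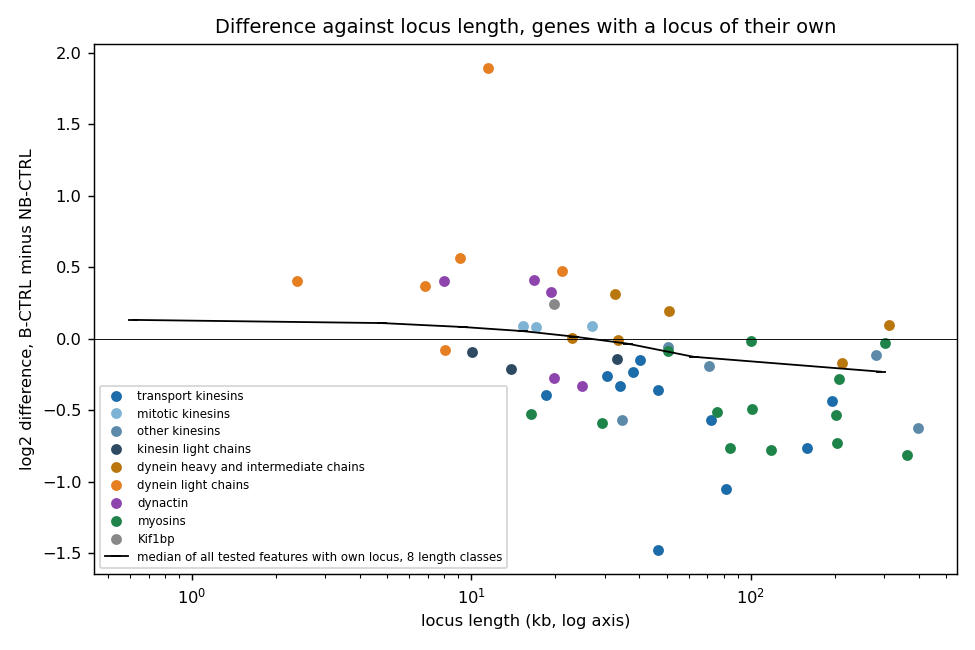
Log2 difference (B-CTRL minus NB-CTRL) against locus length on a log axis, for the 53 tested motor genes with their own locus, coloured by class; the line joins the medians of all tested features with their own locus in 8 length classes, drawn at the middle of each class. All dynein light chains except Dynll2 lie above the line, and all myosins shown except Myo1f, Myo5b and Myo6 lie below it.

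Genes that work with these motors gave mixed values. Of 23 kinesin adaptors and cargo linkers, 11 were higher and 12 lower on average (median -0.17; 4 and 19 under quantile normalization). Without B-CTRL 2 the median was -0.044. Of these adaptors 0 passed the threshold over all features, and 4 had an unadjusted limma p below 0.05, all lower, beside 6.07% of all tested features. Trak1, which joins kinesin to mitochondria, stood at 20.7, 18.6 and 27.7 FPKM in the B-CTRL libraries 1 to 3, against 30.0, 29.9 and 33.2 FPKM in the NB-CTRL libraries 1 to 3. Each B-CTRL library was below each NB-CTRL library (log2 difference -0.48 ± 0.17 SE). Mapk8ip2, a JIP scaffold, was also lower without overlap (62.2 ± 5.47 against 78.8 ± 6.89 FPKM). Of 22 dynein and dynactin regulators, 10 were higher and 12 lower (median -0.025), and 0 passed the threshold. At an unadjusted limma p below 0.05, 0 were higher and 1 lower, beside 6.25% and 6.07% of all tested features. Hook2, a dynein adaptor, stood at 5.74 ± 1.27 against 8.57 ± 1.27 FPKM without overlap, and Nde1, a partner of dynein, at 5.40 ± 1.30 against 3.66 ± 0.461 FPKM with overlap.

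Of 18 tested genes for conventional myosins and myosin regulators, 9 were higher and 9 lower (median 0.0096), and 0 passed the threshold. At an unadjusted limma p below 0.05, 3 were higher and 2 lower, beside 6.25% and 6.07% of all tested features. Myl6, the essential light chain of non-muscle myosin II, stood at 820.4, 1149.8 and 948 FPKM in the B-CTRL libraries 1 to 3, against 757, 633 and 694 FPKM in the NB-CTRL libraries 1 to 3. All B-CTRL libraries were above all NB-CTRL libraries (log2 difference 0.48 ± 0.17 SE). Rock1, the kinase that activates that myosin, stood at 18.4, 16.7 and 13.3 FPKM in the B-CTRL libraries 1 to 3, against 20.1, 22.9 and 24.8 FPKM in the NB-CTRL libraries 1 to 3, lower in each B-CTRL library (log2 difference -0.48 ± 0.17 SE). Kif1bp, whose product binds kinesins, stood at 83.2, 83.5 and 78.1 FPKM in the B-CTRL libraries 1 to 3, against 67.7, 67.7 and 71.3 FPKM in the NB-CTRL libraries 1 to 3, higher in each B-CTRL library (log2 difference 0.24 ± 0.11 SE).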

How the data were processed

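Poly(A)-selected RNA from the amygdala was sequenced in 6 libraries, 3 per group, on postnatal day 38. The authors deposited FPKM values per feature. Per the submitters' processing notes, STAR 2.5.4b, Cuffdiff 2.2.1 and build rn6 were used; their settings were not given in the sources used. FPKM holds no read counts, so depth is known only roughly and count models were not used. Groups and replicate numbers follow the titles.

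Testing was limited to features whose mean reached 0.5 FPKM, fitted as log2(FPKM + 0.5) with limma 3.58.1 (R 4.3.3; intensity trend, 2-sided, Benjamini-Hochberg over all tested features, threshold 0.05). The pseudocount understates changes of low genes. The fit was tested on simulated data. The members and lists were chosen with earlier results of these data known. Genes named by rule were the 6 members with the lowest p in each direction, the 2 most abundant of each class, a fixed list of well-known motors and, in each related list, the 2 lowest p. Kif1b, Kif1c, Kif13a, Kif13b, Kif16b, Kif3b, Kif3c, Kif21a, Kifc2, Kifc3, Kif15, the ciliary kinesins, Kif26b, Klc4, Dync1i2, Dync1li1, Dync2h1, Dynll2, Dynlt1, Dctn4, Dctn6, Myo5b, Myo5c, Myo9a, Myo19, Myo1d, Myo1e, Myo1f and Kif1bp were described with their values known where that rule did not name them. A loess fit (span 0.5) removed the trend with locus length in one alternative. Promoter sequences are from RefSeq (GRCr8), and motifs were searched on both strands of the 250 upstream bases. Other alternatives were the pseudocount, the filter, scaling, no intensity trend, a replicate block and leaving out each library. The values of 1 myosin are not reported here, though it is counted in its class.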

Additional observations from a re-analysis of the deposited data

How the results depend on the processing

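No motor gene passed the threshold under any alternative run. Over all tested features 0 passed in every setting except without NB-CTRL 3, where 1 did (range 0 to 1 over the left-out libraries). With the replicate number as a block, 0 features and 0 motor genes passed and 9 motor genes had an unadjusted p below 0.05 instead of 15, while the share over all tested features was 10.4% instead of 12.3%; same-numbered libraries had correlated deviations of -0.22, 0.072 and 0.15, so the numbers were not taken to pair the samples. Leaving out each library, the class median ranged from -0.28 to -0.065 for all motor genes, 0.075 to 0.22 for dynactin, 0.019 to 0.096 for mitotic kinesins and -0.61 to -0.19 for myosins. The dynactin median was 0.25 under median scaling, 0.020 under quantile normalization and 0.24 with the length trend removed. The mitotic kinesin median was 0.028 with no filter, 0.18 under median scaling and 0.19 under quantile normalization, and the myosin median was -0.12 with no filter. Some differences changed sign. Under median scaling they did so for Dctn2 (0.081), Klc2 (0.0042) and Myo6 (0.078), and under quantile normalization for Dync1i1 (-0.031), Dync1li2 (-0.13) and Myo6 (0.054). With the length trend removed they did so for Dctn2 (0.14), Kif5c (0.087, from -0.23) and Myo6 (0.20); Dctn2 and Kif5c have no locus of their own, so that setting is void for them. Leaving out each library, the difference ranged from -0.056 to 0.039 for Dctn2, -0.065 to 0.084 for Dync1li2, -0.50 to 0.031 for Kif5b, -0.032 to 0.28 for Kifc1 and -0.19 to 0.12 for Myo6. The cause was not tested. The number of libraries, 3 per group, and the lack of read counts limit the precision.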
